A study of Mus musculus with 16 samples.

Results

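The effect of deleting Vhl in tubule cells was examined in mouse kidneys that had not been injured, by setting the 3 arrays titled VHL-KO against the 3 titled Control. These 6 arrays are part of a series of 16 whole-transcript microarrays of mouse kidney. The other 10 arrays, 5 of AKI and 5 of VHL-KO/AKI mice, come from kidneys with acute injury. They serve here as a second look at the same deletion. They also enter the shared estimate of spread behind every standard error and p-value of VHL-KO against control. Each gene was described by 1 row of the deposited log2 table, namely its single-symbol row of greatest average over all 16 arrays, which gave 19938 genes. The arrays were chosen by title and not by any measured value.

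Per the design text, every mouse in the series carried transgenes that let doxycycline remove Vhl from renal tubule cells. The reference cited there describes the line as Pax8-rtTA-based and names liver as well as kidney. Control mice had no treatment, and their genotype label is wt although the design text counts them among the transgenic mice. VHL-KO mice were given doxycycline by subcutaneous injection, 0.1 mg for each 10 g of weight, and were killed 4 days later. No group received doxycycline without the inducible deletion, so the drug and the deletion cannot be told apart. The AKI mice had rhabdomyolysis from 50% glycerol in a hind limb muscle, 0.05 ml for each 10 g, and had no water for 20 h beforehand and 24 h afterwards. The VHL-KO/AKI mice had the glycerol and the doxycycline. All mice weighed 24 to 31 g, both sexes were used, and an age is not given in the sources used here. Each array was made from total RNA of a halved kidney from a replicate that its title calls biological.

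The von Hippel-Lindau protein is the part of a ubiquitin ligase that recognises the alpha subunits of the hypoxia-inducible factors (HIF). When oxygen is present, prolyl hydroxylases mark these subunits, the von Hippel-Lindau protein binds the mark, and the subunits are degraded. Without it, HIF accumulates and binds short DNA sites near genes for glucose breakdown, mitochondrial turnover, vessel tone and growth, collagen modification and its own hydroxylases. In kidney, tubule cells mainly accumulate HIF with the alpha subunit Hif1a, whereas the form with Epas1 is known from endothelial and interstitial cells, which include the cells that make erythropoietin.

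The 6 arrays were alike in overall signal, with medians of 5.94 to 6.03 on the log2 scale, and their number limits the precision of every value. Correlations over all genes were 0.992 to 0.994 within the controls, 0.993 to 0.994 within VHL-KO and 0.988 to 0.993 between them. Kidney markers were present in all 6: Umod of the thick ascending limb lay at 13.13 to 13.34 and Slc34a1 of the proximal tubule at 12.93 to 13.46, whereas the mean of 7 adrenal genes lay at 4.31 to 4.41, near the low end of the table (3.34). Control 3 stood apart in sex-linked signal. It held Xist, which is transcribed in female cells, at 10.23 and a mean of the Y-linked genes of 7.43, against 11 to 11.47 and 4.81 to 5.01 in the other 5 uninjured arrays. The mean of 11 male-biased kidney genes was 12.09 in Control 3 and 8.97 to 9.38 in the other 5. Where a call of a named gene was lost without this array, the text says so. VHL-KO 1 stood apart in immunoglobulin genes, with a mean over 14 of them of 6.25 against 5.11 to 5.26. All adjusted p-values are from limma with Benjamini-Hochberg adjustment over the 19938 genes, and a gene is said to have risen or fallen where that value is under 0.05.

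Vhl itself was lower in each VHL-KO array than in each control, by an amount that did not pass the threshold. Its level was 7.03, 7.05 and 7.10 in controls 1 to 3 and 6.70, 6.62 and 6.64 in VHL-KO 1 to 3. The groups did not overlap, and the spread within each was small beside the gap. The difference was -0.40 on the log2 scale (SE 0.087, 95% interval -0.59 to -0.22, adjusted p = 0.0565). It passed when the arrays were first centred on their medians (-0.49, adjusted p = 0.0177) and when AKI 4, which enters only through the shared spread, was left out (-0.40, adjusted p = 0.0274). It did not pass with any single control or VHL-KO array left out (adjusted p from 0.123 to 0.244). With a sex-linked covariate it was at -0.36 (adjusted p = 0.435). In tissue that holds all cell types of the kidney, fewer cells with a transcript and less of it per cell cannot be told apart, for this gene and for all that follow.

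In VHL-KO against control, 95 genes rose (0.476% of those tested) and 10 fell (0.0502%). Of the rises 38 were at least 2-fold (0.191% of all genes), and of the falls 1 was (0.00502%). At an unadjusted p under 0.05 there were 1664 genes (8.35%). All 95 rises and all 10 falls separated the 3 arrays of each group, as did 2360 genes upward (11.8%) and 1062 downward (5.33%) over the whole table. The split of 95 and 10 became 47 and 13 with arrays centred on their medians, 56 and 15 after quantile scaling, and 56 and 10 after cyclic loess scaling. It was 31 (0.155%) and 3 (0.015%) without Control 3, of which 30 and 2 were among the 105. It was 51 and 4 without Control 1, 44 and 4 without Control 2, 40 and 1 without VHL-KO 1, 31 and 4 without VHL-KO 3, and 193 and 42 without AKI 4.

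The arrays were uneven over the raised genes. Of the 95 rises, VHL-KO 3 held the highest value in 54, VHL-KO 1 in 32 and VHL-KO 2 in 9, and VHL-KO 2 held the lowest of the 3 in 69. The median height above the control mean was 1.00 in VHL-KO 3, 0.81 in VHL-KO 1 and 0.68 in VHL-KO 2. The controls were uneven by the same count, with the highest of the 3 in Control 1 for 49 genes, in Control 2 for 29 and in Control 3 for 17. Without VHL-KO 2, 128 genes rose and 7 fell.

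The rises leaned towards genes that respond to low oxygen. In 12 lists of HIF regulators, glucose and glycogen enzymes, mitochondrial targets, vessel peptides, collagen enzymes, histone demethylases, acid-base genes and other HIF targets, 150 different genes were measured. Of these 21 rose (14%, against 0.476% of all genes tested) and 0 fell, where limma counted 10 falls over the whole table. Their median difference was 0.20 against 0.02 for all genes. Of the 150, 67 (44.7%) were higher in every VHL-KO array than in every control, against 11.8% of all genes. Without Control 3, 9 of the 21 still passed. The lists were written with results of these arrays known, so the counts describe the arrays and test nothing.

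**Figure D1:**
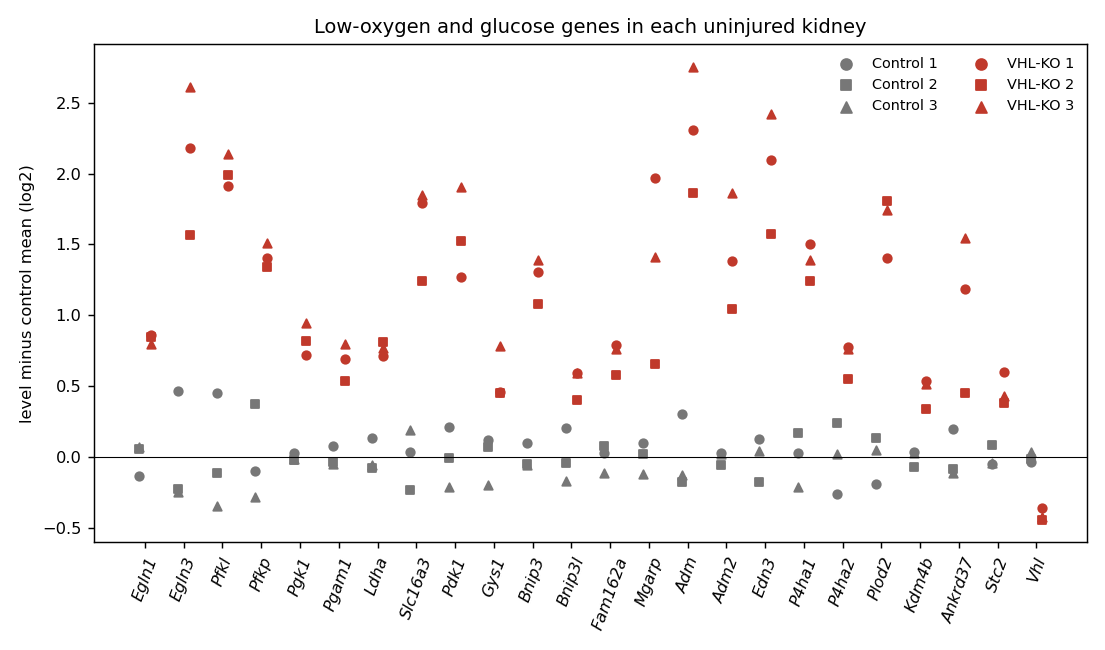
Level of 23 genes that rose and of Vhl in each uninjured kidney, as log2 level minus the mean of the 3 controls, with grey for Control and red for VHL-KO and a marker shape for each replicate number. Mgarp and Adm2 lie outside the lists. Red points lie above all grey points for every gene but Vhl, where they lie below; VHL-KO 2 (squares) is the lowest red point for Egln3, Adm, Adm2, Edn3 and Mgarp, whereas the 3 red points of Egln1, Pfkp and Ldha lie close together.

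HIF binds DNA at a core of the letters ACGTG or GCGTG. The 250 bases before the start of each gene were searched for these letters on both strands, in RefSeq promoter windows of build GRCm38.p6. ACGTG stood in 3526 of 19115 windows of all tested genes (18.4%), and in 25 of the 84 windows that 69 of the 95 raised genes had (29.8%). Either core stood in 46.3% and 65.5%. The raised genes' windows were also richer in G and C, 60.3% against 56.4%, and the part of base composition in these shares was not tested. The 7 stretches that follow were picked among raised genes with ACGTG in a window. They stand for main groups of the results: sugar breakdown and lactate (Pgk1, Ldha, Slc16a3), mitochondrial turnover (Bnip3), the oxygen sensors (Egln1, Egln3) and collagen (P4ha1). Other leading rises, among them Pfkl, Pfkp, Pdk1, Plod2, Adm and Edn3, had no window with ACGTG. Genes without any window and genes whose windows lacked these letters are not told apart here. Capitals mark ACGTG, which reads CACGT on the other strand, and the letters CACGTG hold it on both strands at once. Each is written 5′ to 3′ on the strand of its gene.
Pgk1, chrX:106186930-106186993, plus strand: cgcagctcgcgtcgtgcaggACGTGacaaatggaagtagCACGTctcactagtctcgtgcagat
Ldha, chr7:46845639-46845778, plus strand: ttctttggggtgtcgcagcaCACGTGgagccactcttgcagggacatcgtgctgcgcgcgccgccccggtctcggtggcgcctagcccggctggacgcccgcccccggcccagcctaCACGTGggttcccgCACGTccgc
Slc16a3, chr11:120949020-120949066, plus strand: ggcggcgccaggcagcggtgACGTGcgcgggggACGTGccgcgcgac
Bnip3, chr7:138909589-138909634, minus strand: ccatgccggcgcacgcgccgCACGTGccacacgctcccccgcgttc
Egln1, chr8:124949298-124949342, minus strand: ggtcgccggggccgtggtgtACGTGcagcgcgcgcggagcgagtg
Egln3, chr12:54204079-54204123, minus strand: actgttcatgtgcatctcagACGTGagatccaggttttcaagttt
P4ha1, chr10:59323260-59323295, plus strand: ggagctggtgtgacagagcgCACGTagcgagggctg

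The stretches differ in how the core is placed. The Ldha stretch holds CACGTG at 2 places and CACGT once more nearer the start, the Slc16a3 stretch holds ACGTG at 2 places close together, and the Egln3 stretch lies 249 to 205 bases before the start. A match is a description of letters and does not show that a factor binds there. Of the 10 genes that fell, 8 had windows, and 3 of these 14 windows held ACGTG (21.4%). The 3 belonged to Gng12 and to Dnase1, whose overlapping windows held the same stretch.

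Of the 15 measured genes of the HIF pathway, the oxygen sensors Egln1 and Egln3 rose (0.476% of all genes) and the other 13 did not pass. Both encode prolyl hydroxylases that mark HIF alpha subunits, and both are known HIF targets. Egln1 lay at 9.35, 9.54 and 9.55 in controls 1 to 3 and at 10.34, 10.33 and 10.28 in VHL-KO 1 to 3, a rise of 0.84 (SE 0.0981, adjusted p = 0.000851). The 3 deleted kidneys were nearly equal and all lay above the controls. Egln3 went from 8.80, 8.11 and 8.09 to 10.51, 9.90 and 10.94 (2.11, SE 0.352, 4.33-fold, adjusted p = 0.0139), with VHL-KO 2 nearest the controls. Without Control 3, Egln1 passed (0.87, adjusted p = 0.0048) and Egln3 did not (1.99, adjusted p = 0.0797).

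Transcripts of the HIF subunits stayed within narrow limits that allow only small changes. Hif1a differed by -0.12 (95% interval -0.36 to 0.13), Epas1 by 0.12 (-0.19 to 0.44) and Arnt, the shared partner subunit, by 0.09 (-0.09 to 0.27). The third prolyl hydroxylase gene, Egln2, differed by -0.13 (-0.39 to 0.13), and Hif1an, which encodes the asparagine hydroxylase of HIF, by 0.05 (-0.30 to 0.40). The genes of the ligase that holds the von Hippel-Lindau protein, Elob, Eloc, Cul2 and Rbx1, lay between -0.16 and 0.23, and none passed. The list median was 0.07 and turned to -0.01 when arrays were centred on their medians.

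Glucose breakdown rose at several separate steps and through particular isoforms. Of 9 measured genes of its first steps, 2 rose (0.476% of all genes), 0 fell and 7 did not pass, with a median of 0.51. Pfkl and Pfkp encode the liver and platelet forms of phosphofructokinase, the enzyme that commits glucose to breakdown. Pfkl lay at 8.74, 8.18 and 7.95 in the controls and at 10.20, 10.28 and 10.43 in VHL-KO 1 to 3 (2.02, SE 0.219, 4.04-fold, adjusted p = 0.000464). Pfkp went from 8.21, 8.68 and 8.03 to 9.71, 9.65 and 9.82 (1.42, SE 0.252, 2.68-fold, adjusted p = 0.0181). For both genes the deleted kidneys lay within a narrower range than the controls. The muscle form Pfkm differed by -0.01 (adjusted p = 1.00). Aldolase Aldoa, Aldoc and triose phosphate isomerase Tpi1 were higher in every VHL-KO array without passing, at 0.40 (adjusted p = 0.0763), 1.31 (adjusted p = 0.16) and 0.51 (adjusted p = 0.24). Aldoart1, a close copy of Aldoa whose row may share its signal, rose by 0.54 and is uncertain for that reason. Its call was also lost under all 3 scalings and without Control 3 (0.56, adjusted p = 0.141).

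In the later steps of glycolysis 2 of 8 measured genes rose (0.476% of all genes), 0 fell and 6 did not pass, with a median of 0.44. Pgk1, phosphoglycerate kinase, which makes ATP, lay at 11.58, 11.53 and 11.54 in the controls and at 12.27, 12.37 and 12.50 in VHL-KO (0.83, SE 0.102, 1.77-fold, adjusted p = 0.00144). Pgam1, phosphoglycerate mutase, went from 11.49, 11.38 and 11.36 to 12.10, 11.95 and 12.21 (0.68, SE 0.125, 1.60-fold, adjusted p = 0.024). The controls of Pgk1 spanned less than the deleted kidneys, and neither gene overlapped between groups. Pkm, pyruvate kinase of muscle and many other tissues, was 0.64 higher without passing (adjusted p = 0.072), and the liver and red cell form Pklr differed by 0.11 (adjusted p = 0.90). Without Control 3, Pfkl (1.85, adjusted p = 0.0048) and Pgk1 (0.82, adjusted p = 0.0119) passed, whereas Pfkp (1.29, adjusted p = 0.111) and Pgam1 (0.65, adjusted p = 0.121) did not.

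Of 16 measured genes of pyruvate and lactate handling, Ldha, Slc16a3 and Pdk1 rose (0.476% of all genes), 0 fell and 13 did not pass. Among the 13 were the pyruvate dehydrogenase genes Pdha1 (0.20, adjusted p = 0.88), Pdhb (0.14, adjusted p = 0.924) and Dlat (-0.10, adjusted p = 0.907) and the pyruvate carrier Mpc1 (0.04, adjusted p = 0.979). Ldha, lactate dehydrogenase A, lay at 11.79, 11.58 and 11.60 in the controls and 12.37, 12.47 and 12.43 in VHL-KO (0.76, SE 0.128, 1.70-fold, adjusted p = 0.0139). Slc16a3, which exports lactate, went from 6.78, 6.51 and 6.93 to 8.53, 7.98 and 8.59 (1.63, SE 0.259, 3.09-fold, adjusted p = 0.00939). Pdk1, a kinase that switches off pyruvate dehydrogenase, went from 8.31, 8.09 and 7.89 to 9.37, 9.62 and 10.00 (1.57, SE 0.211, 2.96-fold, adjusted p = 0.00277). None of the 3 overlapped between groups, and the height of Slc16a3 was least in VHL-KO 2. Ldhb, which favours the reverse reaction, differed by -0.03 (adjusted p = 0.98). Pdk4 stood at 12.32 in VHL-KO 3 alone, against 9.0 and 8.75 in VHL-KO 1 and 2 and 8.29 to 8.76 in the controls, and did not pass (1.52, adjusted p = 0.70). Without Control 3, Slc16a3 (1.72, adjusted p = 0.0344) and Pdk1 (1.46, adjusted p = 0.0266) passed and Ldha did not (0.74, adjusted p = 0.0782).

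Entry of glucose into cells did not pass at any gene. Of 10 measured transporters and hexokinases 0 rose and 0 fell in limma, and 1 had an unadjusted p under 0.05 (8.35% of all genes). That gene was Slc2a1, the widely expressed glucose transporter, at 10.31, 10.09 and 9.93 in the controls and 10.88, 10.79 and 10.96 in VHL-KO (0.77, adjusted p = 0.135). Its groups did not overlap. Hk2, a hexokinase known as a HIF target, differed by 0.07 (adjusted p = 0.96). Of the 10 glycogen genes Gys1, glycogen synthase, rose by 0.57 (adjusted p = 0.037), 0 fell and 9 did not pass. The call of Gys1 was lost under each of the 3 scalings and without Control 3.

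**Figure D2:**
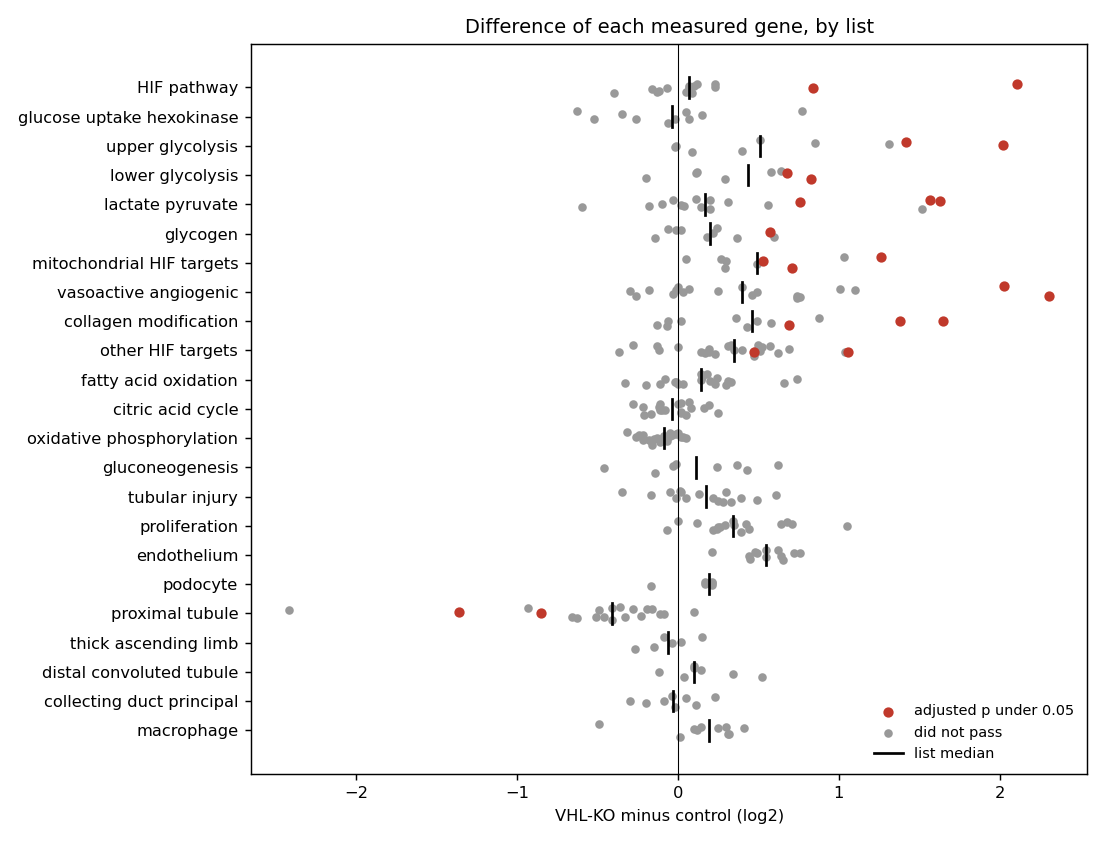
Difference between VHL-KO and control (log2) for each measured gene of 23 lists, with red points for an adjusted p under 0.05, grey points for genes that did not pass and a black bar for the list median. Glycolysis, mitochondrial HIF targets, collagen modification and endothelium lie to the right of 0, the proximal tubule list lies to the left with a median of -0.41, and the citric acid cycle and oxidative phosphorylation lie close to 0.

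Genes that HIF uses to remodel mitochondria held 3 rises among 9 measured, against 0.476% of all genes, with 0 falls and 6 that did not pass. The list median was 0.49. Bnip3 and Bnip3l encode outer membrane receptors for the removal of mitochondria by autophagy, and Fam162a encodes a mitochondrial protein induced by low oxygen. Bnip3 lay at 11.16, 11.01 and 11 in the controls and at 12.36, 12.14 and 12.45 in VHL-KO (1.26, SE 0.228, 2.39-fold, adjusted p = 0.0213). Bnip3l rose by 0.53 (adjusted p = 0.0188) and Fam162a by 0.71 (adjusted p = 0.0106). All 9 genes were positive and 7 separated the groups upward, as did 11.8% of all genes. Higd1a, a respiratory chain factor induced by low oxygen, was 1.03 higher without passing (adjusted p = 0.078), and Ndufa4l2, a HIF target that lowers respiration, differed by 0.27 (adjusted p = 0.80). None of the 3 calls was kept without Control 3, where Bnip3 was at 1.23 (adjusted p = 0.105), and Bnip3 and Bnip3l each lost the call under 1 of the 3 scalings. Mgarp, another mitochondrial protein gene outside the list, went from 4.70, 4.62 and 4.48 to 6.57, 5.26 and 6.01 (1.35, adjusted p = 0.0265). Its controls lay below the array medians, and it did not pass without Control 3 (1.29, adjusted p = 0.138).

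Genes of fuel oxidation and glucose synthesis had no calls. In limma 0 of 20 fatty acid oxidation genes, 0 of 20 citric acid cycle genes, 0 of 23 oxidative phosphorylation genes and 0 of 8 gluconeogenesis genes rose or fell, where 0.527% of all genes did, with 2, 1, 1 and 1 at an unadjusted p under 0.05 (8.35% of all genes). Their medians were 0.15, -0.04, -0.09 and 0.11. Of the fatty acid oxidation genes 5 were higher in every VHL-KO array than in every control (11.8% of all genes). Of the oxidative phosphorylation genes 6 were lower in every VHL-KO array (5.33% of all genes), and differences of the 23 ran from -0.32 to 0.05. Pck1, the key enzyme of glucose synthesis, was 0.62 higher without passing (adjusted p = 0.604).

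Of 19 measured genes of vessel peptides, growth factors and their receptors, Adm and Edn3 rose (0.476% of all genes), 0 fell and 17 did not pass. The list median was 0.40. Adm encodes adrenomedullin, a vasodilator, and lay at 6.73, 6.25 and 6.30 in the controls and at 8.73, 8.29 and 9.18 in VHL-KO (2.31, SE 0.233, 4.95-fold, adjusted p = 0.00031). Edn3 encodes an endothelin peptide and went from 6.73, 6.43 and 6.65 to 8.70, 8.18 and 9.02 (2.03, SE 0.265, 4.08-fold, adjusted p = 0.00212). In both, VHL-KO 3 was highest and VHL-KO 2 lowest of the deleted kidneys, and all 3 lay clear of the controls. Adm2, the related peptide intermedin, lies outside the list and rose in the same order of arrays, from 6.17, 6.08 and 6.16 to 7.52, 7.18 and 8.0 (1.43, SE 0.219, adjusted p = 0.00729). All 3 calls were kept with any 1 of the 6 arrays left out.

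Receptors and other ligands of the list did not pass. The endothelin peptide gene Edn1 differed by 0.03 (adjusted p = 0.992), and Apln, which encodes the vessel peptide apelin, by 1.10 without overlap (adjusted p = 0.156). Calcrl and Ramp2, which form a receptor for adrenomedullin, differed by 0.46 (adjusted p = 0.15) and 0.40 (adjusted p = 0.29), and the endothelin receptor gene Ednrb by 1.01 (adjusted p = 0.12). Vegfa, the main growth factor for endothelium, lay at 9.81, 9.42 and 9.60 in the controls and 10.51, 9.96 and 10.59 in VHL-KO, without overlap and without passing (0.74, 95% interval 0.19 to 1.30, adjusted p = 0.36). Epo, which encodes erythropoietin, lay between 4.03 and 4.65 in all 6 arrays, near the low end of the table. Its difference was -0.26 with a wide 95% interval of -2.37 to 1.86. That width comes from the spread shared with the injured arrays, since the values of these 6 lay close together.

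Collagen-modifying enzymes gave some of the most stable rises, with 3 of 12 measured genes higher (0.476% of all genes), 0 lower and 9 that did not pass. The list median was 0.46. P4ha1 and P4ha2 encode catalytic subunits of collagen prolyl hydroxylase, and Plod2 a lysyl hydroxylase that sets the type of collagen cross-link. P4ha1 lay at 8.87, 9.01 and 8.63 in the controls and at 10.34, 10.08 and 10.23 in VHL-KO (1.38, SE 0.142, 2.61-fold, adjusted p = 0.00031). Plod2 went from 7.78, 8.10 and 8.02 to 9.37, 9.77 and 9.71 (1.65, SE 0.187, 3.13-fold, adjusted p = 0.000698), here with VHL-KO 1 as the lowest deleted kidney. P4ha1 and Plod2 are among the 10 genes of the table that passed under all 18 alternatives, with Vmn1r32, Adm, Alas2, Edn3, Pfkl, Isg20, Igsf3 and Egln1. P4ha2 rose by 0.69 (adjusted p = 0.0439), was lost under all 3 scalings and was at an adjusted p of 0.154 without Control 3. Lox, which oxidises collagen for cross-linking, differed by 0.58 with overlapping groups (adjusted p = 0.88).

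Among further HIF targets, 2 of 25 rose (0.476% of all genes), 0 fell and 23 did not pass. Of the 25, 15 separated the groups upward (11.8% of all genes), and the median was 0.35. Ankrd37 rose from 5.73, 5.45 and 5.42 to 6.72, 5.99 and 7.08 (1.06, adjusted p = 0.0393), and Stc2, a secreted stanniocalcin, rose by 0.47 (adjusted p = 0.0159). VHL-KO 2 lay well below the other deleted kidneys for Ankrd37. Of 11 histone demethylases, oxygen-dependent enzymes that act on chromatin, Kdm4b rose by 0.46 (adjusted p = 0.0139), 0 fell and 10 did not pass. None of the 3 genes passed without Control 3, and Ankrd37 and Kdm4b were lost under all 3 scalings. Of 6 acid-base genes 0 rose and 0 fell in limma, 0 at an unadjusted p under 0.05 (8.35% of all genes). Car9, the carbonic anhydrase best known as a HIF target, differed by 0.35 with overlapping groups (95% interval -0.48 to 1.18).

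Both Myc and the haem genes Hmox1 and Alas2 rose, each largely alone in its list. Myc, a transcription factor of growth, lay at 6.94, 6.59 and 6.49 in the controls and at 8.36, 7.66 and 8.73 in VHL-KO (1.58, SE 0.229, 2.98-fold, adjusted p = 0.00467), and the other 9 genes of its network did not pass. Hmox1 breaks down haem and went from 7.28, 7.75 and 7.66 to 9.68, 9.39 and 9.93 (2.11, SE 0.358, 4.30-fold, adjusted p = 0.0148). Alas2 encodes the enzyme that starts haem production in developing red cells. It went from 7.47, 8.07 and 7.84 to 9.98, 9.59 and 10.12 (2.11, SE 0.266, 4.31-fold, adjusted p = 0.00176). All 3 genes stood clear of the highest control in every deleted kidney. The other 13 of 15 haem and iron genes did not pass. Of 9 targets of the oxidative stress factor NRF2, which also controls Hmox1, 0 rose and 0 fell in limma. At an unadjusted p under 0.05 there was 1 of them (8.35% of all genes). Without Control 3, Myc (1.49, adjusted p = 0.038) and Alas2 (2.13, adjusted p = 0.0119) passed and Hmox1 did not (2.15, adjusted p = 0.0624).

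Alas2 and Ppbp are also markers of red cells and platelets. Of 7 measured erythroid genes Alas2 was the 1 that rose, and the mean of the other 6 was 6.11 to 6.21 in the controls and 6.35 to 6.43 in VHL-KO, with a median difference of 0.21. Slc4a1, the band protein of the red cell membrane that intercalated cells also make, differed by 0.59 (adjusted p = 0.654), and the erythroid factor Klf1 by -0.05. Ppbp, a platelet chemokine, lay at 6.58, 6.19 and 6.71 in the controls and at 8.12, 8.95 and 9.08 in VHL-KO (2.22, SE 0.378, 4.66-fold, adjusted p = 0.0148). It was lowest in VHL-KO 1, as were Pf4 (0.63, adjusted p = 0.107) and Gp9 (0.40, adjusted p = 0.0881), and the mean of the 5 platelet genes other than Ppbp was 5.28 to 5.57 in VHL-KO against 5.25 to 5.33 in the controls, with a median difference of 0.01. Itga2b and Gp5, also platelet genes, differed by 0.01 and -0.10. The part of blood cells in these rises was not tested. Ppbp did not pass without Control 3 (2.33, adjusted p = 0.0547).

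Endothelial genes stood higher throughout. None of 12 passed alone (0 of 12 in limma, 10 of 12 at an unadjusted p under 0.05, against 8.35% of all genes). All 12 were higher in each VHL-KO array than in each control, against 11.8% of all genes, with differences of 0.21 to 0.76 and a median of 0.55. Tie1, an endothelial receptor, lay at 7.52, 7.38 and 7.44 in the controls and at 8.03, 7.95 and 8.29 in VHL-KO (0.64, adjusted p = 0.0721). Cdh5, the cadherin of endothelial junctions, lay at 9.43, 9.21 and 9.25 and at 9.94, 9.86 and 10.03 (0.65, adjusted p = 0.289). The mean over the list was 9.24, 9.17 and 9.11 in the controls and 9.72, 9.57 and 9.86 in VHL-KO, and the median difference was 0.51 without Control 3. Podocyte genes, which share the glomerulus with endothelium, had a median of 0.19, with 0 of 6 passing and 1 at an unadjusted p under 0.05.

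Among the called genes outside the list, 7 have known expression in endothelium: Cd93, Esm1, Cd34, Robo4, Gpihbp1, Efnb2 and Hspg2. They were picked from the rises after their values were seen and are no list. Cd93, a membrane lectin, lay at 8.24, 8.18 and 8.17 in the controls and at 9.58, 9.28 and 9.87 in VHL-KO (1.38, SE 0.234, adjusted p = 0.0148). Gpihbp1, which holds lipoprotein lipase on capillaries, went from 7.56, 7.08 and 7.31 to 8.25, 8.14 and 8.57 (1.01, adjusted p = 0.00349). Esm1, a secreted proteoglycan of sprouting endothelium, went from 7.82, 7.59 and 7.81 to 8.78, 8.41 and 8.43 (0.80, adjusted p = 0.00791). None of the 3 overlapped between groups. Gpihbp1 and Esm1 passed without Control 3, whereas Cd93 did not (1.36, adjusted p = 0.0775). Cd34 (0.73), Robo4 (0.55), Hspg2 (0.50) and Efnb2 (0.33) were lost under all 3 scalings and without Control 3, where their adjusted p-values were 0.153, 0.143, 0.185 and 0.155.

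Genes of dividing cells were also mostly positive, with 0 of 17 passing in limma, 10 at an unadjusted p under 0.05 (8.35% of all genes) and a median of 0.34. Higher in every VHL-KO array than in every control were 10 (11.8% of all genes). Ccna2, a cyclin of DNA synthesis and mitosis, lay at 5.00, 5.32 and 5.01 in the controls and at 6.68, 5.37 and 6.44 in VHL-KO (1.05, adjusted p = 0.0907). Mki67, a marker of cycling cells, lay at 5.59, 6.05 and 5.83 and at 7.02, 6.28 and 6.30 (0.71, adjusted p = 0.124). VHL-KO 1 was the highest for both, and its list mean was 6.52 against 6.22 and 6.30 in the other deleted kidneys and 5.88 to 6.04 in the controls. The same array was high in immunoglobulin genes, and its macrophage list mean was 8.19, with 8.0 in Control 2 and 7.12 to 7.50 in the other 4. The part of immune cells in the proliferation values was not tested. The mitotic genes Prc1 and Hmmr, named after their values were seen, rose by 0.52 (adjusted p = 0.0212) and 0.36 (adjusted p = 0.0329), and Prc1 was highest in VHL-KO 1. Prc1 lay at 4.30 to 4.49 in the controls and 4.71 to 5.17 in VHL-KO, and Hmmr at 5.02 to 5.07 and 5.28 to 5.49. Both genes thus lay below the array medians in all 6 arrays. Neither passed without Control 3 (adjusted p = 0.121 and 0.153), Hmmr was lost under all 3 scalings and Prc1 under 1.

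**Figure D3:**
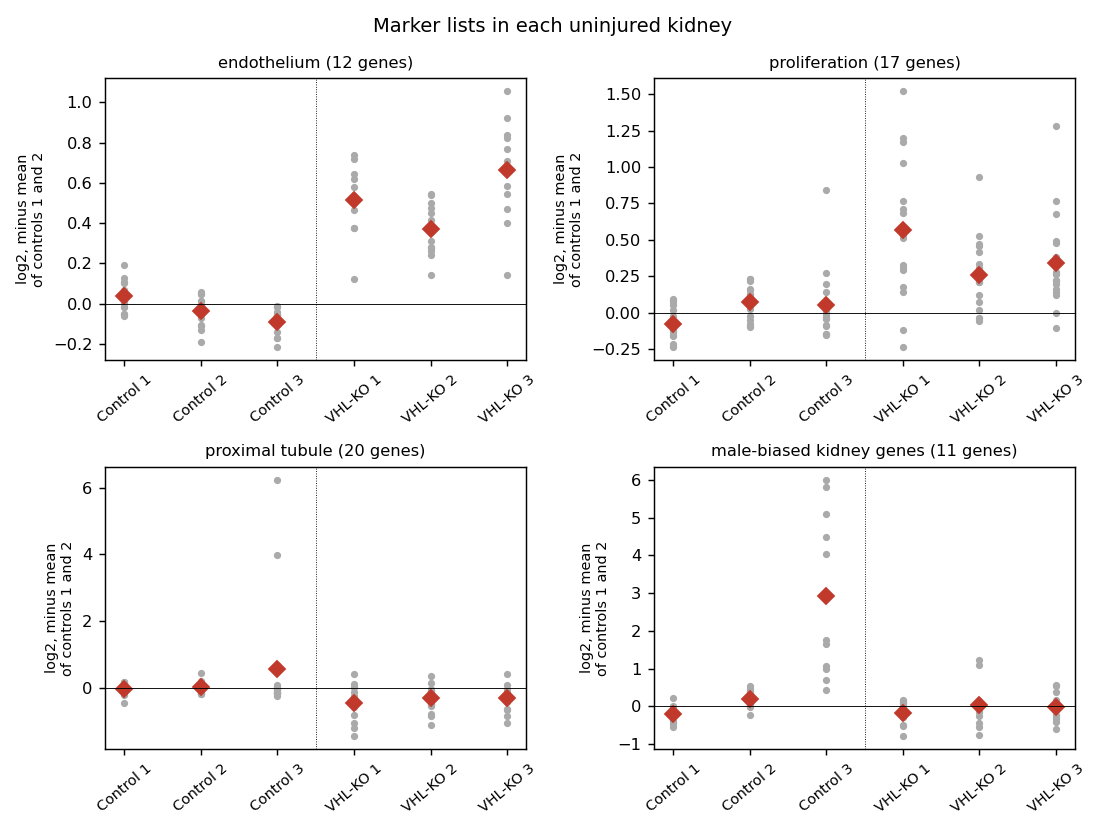
Each gene of 4 marker lists (grey) and the list mean (red diamond) in the 6 uninjured arrays, as log2 level minus the mean of controls 1 and 2. The endothelial means in VHL-KO lie above all controls, the proliferation mean is highest in VHL-KO 1, and in the proximal tubule and male-biased panels Control 3 holds genes far above every other array.

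Proximal tubule genes stood lower, and part of this rested on Control 3. Of 20 measured genes 2 fell (0.0502% of all genes), 0 rose and 18 did not pass. Lower in every VHL-KO array than in every control were 11 (5.33% of all genes). Both called genes, Dnase1 and Abcc2, had been placed in the list with their falls known. The median of the list was -0.41, and -0.29 without Control 3. Slc34a1, the phosphate carrier, lay at 13.45, 13.39 and 13.46 in the controls and at 12.93, 13.12 and 13.03 in VHL-KO (-0.41, 95% interval -0.72 to -0.09, adjusted p = 0.387). It was lower in all 3, and Control 3 did not stand out. Slc7a13, an amino acid carrier with male-biased expression, lay at 12.21 in Control 3 and at 5.14 to 6.44 in the other 5 (-2.42, adjusted p = 0.638). Lrp2, the endocytic receptor megalin, differed by -0.11 (adjusted p = 0.95). The male-biased list had a median of -0.73, and -0.16 without Control 3. Thick ascending limb, distal convoluted tubule and principal cell lists had medians of -0.06, 0.10 and -0.03. In each 0 genes passed, and 0, 1 and 0 were at an unadjusted p under 0.05 (8.35% of all genes).

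Markers of tubular injury did not pass. Of 16 measured genes 0 rose or fell in limma, 1 had an unadjusted p under 0.05 (8.35% of all genes), and the median was 0.17. Havcr1, the kidney injury molecule, differed by 0.02 with a wide 95% interval of -1.52 to 1.56, and Lcn2, a secreted injury marker, by 0.61 (0.04 to 1.18, adjusted p = 0.552). Of 13 matrix genes Ccn2, a growth factor of the matrix, rose from 9.50, 9.43 and 9.40 to 9.94, 10.54 and 10.80 (0.98, adjusted p = 0.0329), with 0 falls and 12 that did not pass. It was lost under all 3 scalings and without Control 3 (0.96, adjusted p = 0.143).

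Of the 10 genes that fell, Dnase1 and Abcc2 are the 2 of the proximal tubule list. Dnase1, a secreted DNA-cutting enzyme, had the deepest fall and lay at 10.92, 10.57 and 11.27 in the controls and at 9.32, 9.64 and 9.71 in VHL-KO (-1.36, SE 0.211, 2.57-fold lower, adjusted p = 0.00791). Abcc2, an exporter of organic anions in the proximal tubule, went from 11.33, 11.44 and 11.14 to 10.19, 10.60 and 10.56 (-0.85, SE 0.159, adjusted p = 0.024). Ethe1, which oxidises sulphide in mitochondria, fell by 0.68 and Plekha6 by 0.64. Control 3 held the highest Dnase1 and Ethe1 values of the 6 arrays and the lowest Abcc2 value of the 3 controls. Cyp4f14 fell by 0.68 and Klk1b22 by 0.66, and both belong to families of closely similar genes whose rows may share signal. Dusp9, a phosphatase of MAP kinases, fell by 0.54. Without Control 3, Klk1b22 and Cyp4f14 passed, whereas Dnase1 (-1.19, adjusted p = 0.0547), Abcc2 (-0.94, adjusted p = 0.0566), Dusp9 (-0.63, adjusted p = 0.0547), Ethe1 (-0.51, adjusted p = 0.171) and Plekha6 (-0.59, adjusted p = 0.186) did not.

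The largest difference of the table was that of a receptor gene of the vomeronasal organ, a sensory organ of the nose. Vmn1r32 lay at 5.04, 5.27 and 5.00 in the controls and at 11.57, 10.54 and 11.62 in VHL-KO, a rise of 6.14 (SE 0.279, adjusted p = 1.92e-08). Controls lay below the array medians, near the low end of the table, so a fold against them would be a lower bound and is not given, and all 3 deleted kidneys lay far above them. Of 117 measured genes of the Vmn1r family 2 rose and 0 fell, with a family median of 0.01, and the second, Vmn1r38, rose by 0.63 (adjusted p = 0.0397) and was lost under all 3 scalings and without Control 3 (adjusted p = 0.131). These receptors are close copies of each other, so a row may take signal from several of them. Rows assigned to several Vmn1r genes at once, which are not among the genes tested, rose by 4.58, 3.49 and 1.16.

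Vmn1r32 lies on chromosome 6. By gene order in the RefSeq table of GRCm38.p6, Vmn1r33, Vmn1r35, Vmn1r36 and Vmn1r38 follow it among the measured genes, and Gng12, a G protein subunit, is the sixth. Vmn1r33 and Vmn1r35 differed by 0.02 and 0.14 and Vmn1r36 by 0.40 (adjusted p = 0.31). Gng12 went the other way and fell from 11.66, 11.49 and 11.52 to 11.10, 11.12 and 11.13 (-0.44, SE 0.0779, adjusted p = 0.0177), and did not pass without Control 3 (-0.46, adjusted p = 0.0675). On the other side, Mad2l1 differed by 0.30 (adjusted p = 0.851) with overlapping groups. Vhl lies on the same chromosome but is not among the neighbours examined, and a part of its position in these values was not tested.

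Several further rises belong to no list. Defb19, a beta-defensin, lay at 9.39, 6.5 and 7.78 in the controls and at 11.09, 10.56 and 11.22 in VHL-KO (3.06, SE 0.598, adjusted p = 0.0329), and its controls spread more than its deleted kidneys. Apoc3, an apolipoprotein that restrains lipoprotein lipase, went from 8.24, 7.48 and 8.02 to 9.58, 9.55 and 10.63 (2.01, adjusted p = 0.0298). Il17rb, a cytokine receptor, went from 7.37, 6.39 and 6.71 to 8.61, 8.70 and 9.14 (2.00, adjusted p = 0.0298). None of these passed without Control 3, and Defb19 and Il17rb were also lost under all 3 scalings. A2m, a protease inhibitor, rose by 1.83, Isg20, an exonuclease induced by interferon, by 1.77, Igsf3 by 1.26 and Prelid2 by 1.58 (adjusted p = 5.56e-05), and these 4 passed with any 1 of the 6 arrays left out. The other raised genes with large changes were Tent5c (1.60), Slc17a4 (1.51), Rgs11 (1.40), Hunk (1.36) and Mab21l3 (1.22). Of them Mab21l3 was kept without Control 3, and Slc17a4, Rgs11 and Hunk were lost under all 3 scalings.

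The injured kidneys gave a second comparison of the same deletion, in which no compared array was in common. Both comparisons took the spread of each gene from the same fit, so their calls are not independent. Calls shared in the same direction numbered 48 in that fit and 25 with the compared groups fitted alone. Injured and uninjured mice also differed in sex-linked signal, with Xist at 4.16 to 5.08 and Y-linked means of 7.77 to 8.26 in the injured arrays, so injury and this signal cannot be told apart. In VHL-KO/AKI against AKI, 495 genes rose (2.48%) and 279 fell (1.4%), together 774 (3.88%). Of the 95 genes raised without injury, 45 also rose with it (47.4%), 1 fell and 49 did not pass, and 73 kept the sign, where 45.6% of all genes were positive. Of the 10 lowered genes 3 also fell (30%), Dnase1 (-0.73), Abcc2 (-0.52) and Gng12 (-0.69).

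All 21 raised genes of the low-oxygen and glucose lists also rose in the injured kidneys, and so did 24 of the other 74 raised genes (32.4%). The median difference of the 21 was 1.06 without injury and 0.85 with it, and that of the 74 was 0.85 and 0.21. Both sets were picked by their uninjured difference, and a lower median in a second comparison comes with that choice. The 12 lists were written knowing such results, and the gap between the 2 sets was not tested. Of the 150 measured list genes, 42 rose in injured kidneys (28.0%). Vmn1r32 also rose with injury, from 4.90 to 5.92 in AKI to 9.98 to 10.58 in VHL-KO/AKI (5.02, adjusted p = 8.83e-09). Car9, which did not pass without injury, rose by 2.70 (adjusted p = 0.000216).

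For the 5 raised enzymes of sugar breakdown and for the sensor Egln1 no interaction was called. The interaction, which is the injured difference less the uninjured one, was 0.00 for Pgk1 (95% interval -0.28 to 0.27), 0.02 for Ldha (-0.32 to 0.37), 0.05 for Pgam1 (-0.29 to 0.39) and 0.01 for Egln1 (-0.25 to 0.28). It was 0.00 for Pfkp (-0.68 to 0.68) and 0.26 for Pfkl (-0.34 to 0.85), which differed by 2.02 without injury and 2.27 with it. That the differences were equal was not tested, and the intervals of Pfkp and Pfkl leave room for sizeable changes.

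Hmox1 and Myc differed between the settings, the 2 genes with a called interaction (0.01% of 19938, with 2387 at an unadjusted p under 0.05, 12%). Hmox1 rose by 2.11 without injury and fell by 1.18 with it (adjusted p = 0.0312), an interaction of -3.29 (95% interval -4.25 to -2.32, adjusted p = 0.0466). Without injury Hmox1 averaged 7.56 ± 0.25 in the 3 controls and 9.67 ± 0.27 in the 3 VHL-KO kidneys (mean ± SD). With injury the 5 AKI kidneys averaged 12.17 ± 0.45 and the 5 VHL-KO/AKI kidneys 10.99 ± 0.66, so that both injured means lay above both uninjured ones. Myc rose by 1.58 without injury and differed by -0.44 with it (adjusted p = 0.188), an interaction of -2.02 (adjusted p = 0.0466), from a level of 9.86 ± 0.26 in AKI (SD, n = 5). No interaction was called without Control 3 or when the sex-linked level entered as covariate (0 genes each in limma). With the covariate Hmox1 and Myc were at -3.17 and -1.89 (adjusted p = 0.174 for both).

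Of the called vessel and blood genes named above, 12 in all, none had a called interaction with all arrays, and 7 did when AKI 4 was left out, with sizes that moved little. Adm differed by 2.31 and 0.68 in the 2 settings (interaction -1.63, adjusted p = 0.0791), Cd93 by 1.38 and -0.17 (-1.55, adjusted p = 0.0898), Esm1 by 0.80 and -0.21 (-1.01, adjusted p = 0.0689) and Alas2 by 2.11 and 0.45 (-1.66, adjusted p = 0.0939). Without AKI 4 these 4 passed, Adm at -1.50 (adjusted p = 0.0206), Cd93 at -1.40 (adjusted p = 0.0186), Esm1 at -0.96 (adjusted p = 0.0172) and Alas2 at -1.53 (adjusted p = 0.0294), and so did Robo4 (-0.67), Hspg2 (-0.56) and Ppbp (-2.23). Adm2 (-0.04, adjusted p = 0.964), Edn3 (-0.47, adjusted p = 0.507), Cd34 (-0.21, adjusted p = 0.618), Gpihbp1 (-0.45, adjusted p = 0.138) and Efnb2 (-0.30, adjusted p = 0.0669) did not. In that fit 620 genes had a called interaction (3.11%), among them 41 of the 95 rises. The median of the 12 endothelial genes was 0.55 without injury and 0.18 with it.

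**Figure D4:**
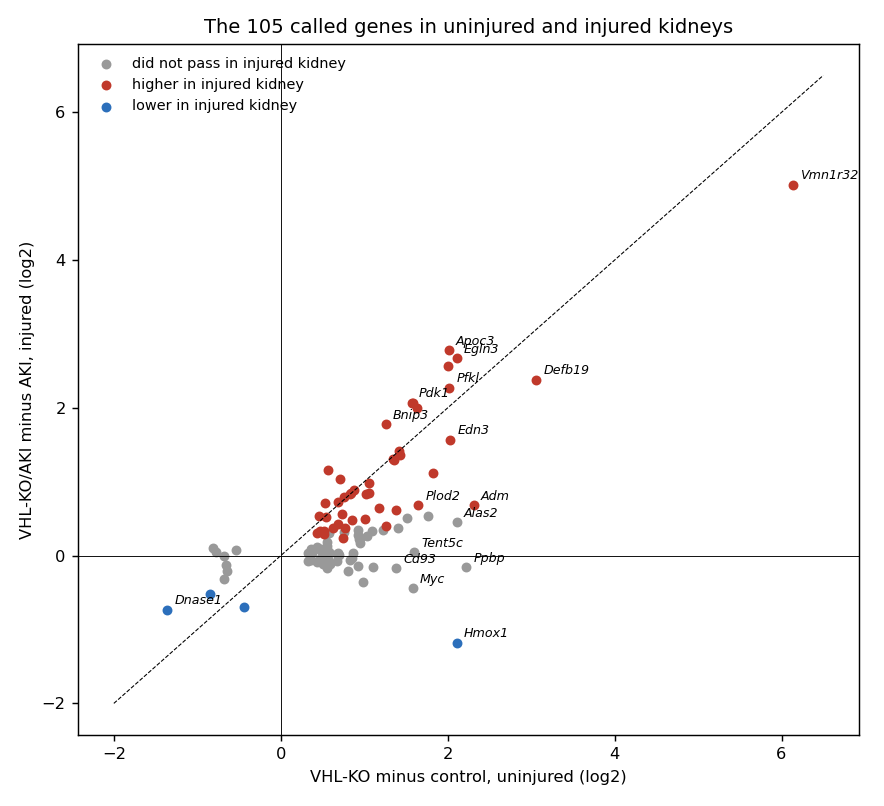
Difference between deleted and undeleted kidneys (log2) for the 105 called genes, without injury on the x axis and with injury on the y axis, coloured by the call in injured kidneys. The dashed line marks equal differences. Egln3, Pfkl, Pdk1 and Bnip3 lie on or above it, Adm, Plod2, Alas2, Cd93 and Ppbp lie below it, and Hmox1 (2.11 and -1.18) is the raised gene that fell in injured kidneys.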

How the data were processed

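Total RNA of halved kidneys was labelled with biotin and hybridised to single-colour whole-transcript arrays, 1 per sample, per the labels. The authors deposited 1 table of log2 levels per probe set (35556 rows). The submitters' processing notes name RMA, which corrects background and summarises probes, and Partek version 6.4, without settings. No scan or batch information was used. Of the rows, 21789 had 1 gene symbol, 1621 had several and 12146 had none, and the first kind gave 19938 genes (999 had several rows). No 2 arrays were identical (0 pairs). The deposited values were not rescaled.

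Groups came from the titles. A single limma model (3.58.1, R 4.3.3) held all 4 groups with 1 mean each (12 residual and 2.83 prior degrees of freedom), each contrast 2-sided with Benjamini-Hochberg adjustment. Errors of differences are standard errors of that fit, and p-values measure the spread between arrays. On simulated data with these group sizes and 200 changed genes, VHL-KO against control found 89% of the genes changed 2-fold and 100% of those changed 4-fold, and 9 of the calls among 19938 genes were false. The simulated noise was normal, with the same spread of a gene in every array. Uneven arrays such as Control 3 and AKI 4 were not simulated, so these shares may not hold for the real arrays. The replicate numbers did not pair the arrays, as the closing section shows.

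Named are Vhl and the HIF pathway list, the 30 largest rises and 15 largest falls among called genes without numbered names, called members of each of 50 lists (547 of 592 symbols measured) or the pair with the smallest p, and genes with a called interaction. Genes outside this rule were added as background to their lists or after their values were seen. The members and lists were chosen with earlier results of these data known. Promoter windows are from RefSeq, build GRCm38.p6, and 15562 of the genes matched one. Alternatives, each changed alone, were all single-symbol rows, a filter on dim genes, 3 scalings, the variance model, array weights, the compared groups alone, the replicate block, a sex-linked covariate and single arrays left out. The fit of the 6 arrays alone without Control 3 was added after the data were seen.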

Additional observations from a re-analysis of the deposited data

Results flagged for a closer look

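The knockout difference changed between injured and uninjured kidneys for Hmox1 and Myc. The interaction was -3.29 on the log2 scale for Hmox1 and -2.02 for Myc, each by the test of the difference itself (limma adjusted p = 0.0466 for both). Rows of the table that have no single gene symbol, and so stand outside the genes tested, also rose in VHL-KO against control: 13 rose and 0 fell. The 3 rows assigned to several Vmn1r genes rose by 4.58, 3.49 and 1.16, a row assigned to 2 other genes by 1.51, and the 3 highest of the rows with no gene name here by 3.51, 2.00 and 1.91. Each was higher in all 3 VHL-KO arrays than in all 3 controls. The unnamed row with the rise of 3.51 lay at 4.65, 4.81 and 4.64 in the controls and at 7.35, 8.78 and 8.5 in VHL-KO.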

How the results depend on the processing

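None of the called differences of Vhl and the 178 genes followed turned its sign under any alternative. The medians of 7 of the 50 lists, each at most 0.08 in size, turned sign under a scaling or without Control 3, among them the HIF pathway (0.07, and -0.01 centred). With 1 array left out at a time, including AKI 4, 31 to 193 genes were called higher and 1 to 42 lower, 18 to 91 calls were shared with the injured comparison, 0 to 620 interactions were called, and the Vhl difference was -0.43 to -0.38. Counts higher were 47 after centring, 56 after quantile scaling, 56 after cyclic loess scaling, 272 with array weights and 16 with the sex-linked covariate. Counts lower were 23 with the 6 arrays fitted alone, 47 with array weights and 2 with the covariate. With the 6 arrays fitted alone 117 genes were called in either direction, and only 58 of these were among the 105. The other calls among the 105 thus rested on the spread shared with the injured arrays. Against 48 calls shared with the injured comparison, 28 were shared after centring, 25 with the compared groups alone, 106 with array weights and 11 with the covariate. Interactions numbered 885 with array weights, 1 after quantile scaling, 0 with all single-symbol rows and 0 with the covariate, where limma gave 2 of 19938 otherwise. Vhl passed after centring (-0.49), quantile (-0.51) and loess scaling (-0.50), with array weights (-0.41) and without AKI 4. It did not pass with the covariate (-0.36, adjusted p = 0.435), the other variance model (adjusted p = 0.145) or the replicate block (adjusted p = 0.111). Nor did Vhl pass with any single control or VHL-KO array left out. The replicate numbers did not pair the arrays (correlations of same-numbered deviations -0.23, -0.15 and 0.01), and a replicate block gave 61 higher, 4 lower and 1 interaction. The 6 arrays alone without Control 3, added later, gave 20 higher and 3 lower. Of the 105 calls, 28 held with any 1 of the 6 arrays left out, 51 under all 3 scalings and 10 under all 18 alternatives. The cause of these shifts was not tested. With 3 arrays a group and 1 of them of mixed sex-linked signal, single calls near the threshold are uncertain. Differences of genes that lay near the low end of the table in all 6 arrays, such as Epo, are uncertain as well. The width of the Epo interval comes from the spread shared with the injured arrays.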

Other observations

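Some of the 95 rises touch signalling and the matrix outside the lists, and were named after their values were seen. Lrp5, a co-receptor of Wnt signals, rose from 8.82, 8.44 and 8.42 to 9.30, 9.34 and 9.68 (0.88, limma adjusted p = 0.00605) and also rose in injured kidneys (0.89). Dusp6, a phosphatase that restrains MAP kinases, rose by 0.92 (adjusted p = 0.0166), and Gja1, the gap junction protein connexin, from 6.25, 5.99 and 6.10 to 7.10, 7.04 and 7.0 (0.93, adjusted p = 0.00576). Gja1 differed by -0.14 in injured kidneys. Itgav, an integrin subunit, rose by 0.70 (adjusted p = 0.0166) and Kitl, the ligand of the receptor Kit, by 0.58 (adjusted p = 0.037). Lrp5 and Gja1 were kept without Control 3, and the other 3 were not. Kitl was also lost under all 3 scalings and Itgav under 1.

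Of 12 interferon response genes listed, 10 were measured and none passed (0 of 10 in limma, 2 at an unadjusted p under 0.05, against 8.35% of all genes). Their mean was 7.58 in VHL-KO 1 and 7.24 in Control 2, and 6.2 to 6.8 in the other 4 arrays, so the arrays differed more within the groups than between them. The macrophage list had the same pair of high arrays.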
